A study of Mus musculus with 3 samples.

Results

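Collagen is made in steps after its chains are translated, and the 34 genes described here encode the enzymes, chaperones and carriers of those steps. They were taken as 1 fixed list of gene names, chosen for function, though with earlier results of these data known. All 34 were found among the 32285 genes of the files. They comprised 14 genes of hydroxylation and glycosylation, 4 of folding, 3 of export from the endoplasmic reticulum, 7 of propeptide cleavage, 5 of crosslinking and 1 of recycling. Levels were read in single cells of the mouse flexor digitorum longus (FDL) tendon from 3 libraries, named 6 M WT, 6 M DTR and, for the aged mice, 21 M B6.

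The 6 M DTR mice were Scx-Cre+; DTR F/+ and the 6 M WT mice were their Scx-Cre-; DTR F/+ littermates. In the Cre-positive mice, Cre under the Scleraxis (Scx) promoter switched on a diphtheria toxin receptor at the ROSA26 locus, so that toxin depleted cells of the Scleraxis lineage, and both genotypes received 5 daily injections of diphtheria toxin into the hind paw. By the study's methods the toxin was given at 3 months, the age in the labels of these samples, and tendons were taken at 6 months. The 21 M B6 mice were untreated C57BL/6J of 21 months. Each group was 1 library of 16 pooled FDL tendons from both sexes. No difference between groups could therefore be tested, and every interval below is an exact 95% interval that covers counting error alone. Digestion lasted 120 min for 6 M WT and 90 min for the other libraries, so digestion time cannot be told apart from group in any comparison with 6 M WT, and mouse line, toxin and age cannot be told apart in 21 M B6.

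As background, fibrillar procollagen is hydroxylated on proline and lysine as it enters the endoplasmic reticulum, is glycosylated, and is then folded into a triple helix that specific chaperones hold until export. Its propeptides are removed outside the cell, which lets fibrils form, and lysyl oxidases then oxidise lysines and hydroxylysines so that neighbouring molecules become covalently linked. Tendon is built almost wholly of such crosslinked type I collagen fibrils, and defects in many of these genes cause brittle bone or connective tissue disease.

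The libraries held 12273 to 16099 barcodes, of which 8357, 6554 and 4798 passed the filters of 1000 to 5000 genes and at most 10% mitochondrial UMIs. Here and below, 3 values in a row are those of 6 M WT, then 6 M DTR, then 21 M B6. Kept cells had a median of 12328 to 13008 UMIs. Between 61 and 76 barcodes were shared by any pair of libraries. The share of all barcodes over the mitochondrial limit was 27.6%, 43.1% and 56.5%, and the median mitochondrial share of kept tenocyte-like cells was 2.78%, 2.86% and 5.59%. Counts under a limit of 5% are given where tenocyte-like and epitenon-like cells of 21 M B6 are compared with 6 M WT.

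Cells were put into 8 classes by markers that include none of the 34 genes. Tenocyte-like cells numbered 5304, 2814 and 869, or 63.5%, 42.9% and 18.1% of kept cells, and epitenon-like cells numbered 1429, 1365 and 2735. Macrophage-like cells numbered 592, 1150 and 514. *Scx*, the transcription factor of tendon lineage cells and 1 of the 8 markers that gated the tenocyte-like class, stood at 94.0, 117 and 79.3 CPM in tenocyte-like cells against 7.65, 6.26 and 3.21 CPM in epitenon-like cells. Since the gate used it, this level describes the class and is no separate check of it. In addition, 3 small classes held under 50 cells in 1 library, namely muscle-like cells of 6 M WT and mural-like and nerve-like cells of 21 M B6. Levels are given as CPM, which scales the UMI counts of a gene by all UMIs of the class. A UMI tags 1 end of a transcript, so CPM of different genes were compared with no division by length.

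The collagen-processing genes were carried mainly by tenocyte-like and epitenon-like cells. Summed over the 34 genes, the level in tenocyte-like cells was 6042, 5714 and 5055 CPM. In epitenon-like cells the sums were 4324, 4307 and 3547 CPM, and in macrophage-like cells they were 1305, 1236 and 1187 CPM. Some other classes lay above macrophage-like cells, with 2398, 1904 and 1773 CPM in nerve-like and 1932, 2231 and 1463 CPM in mural-like cells. Endothelial-like cells held 1690, 1509 and 1373 CPM. Both fibroblast classes stood above all of these in every library, while the order of the libraries within the fibroblast classes rested on the scaling. With TMM factors the sums were 5858, 5164 and 5769 CPM in tenocyte-like cells and 4035, 4025 and 4066 CPM in epitenon-like cells.

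**Figure D1:**
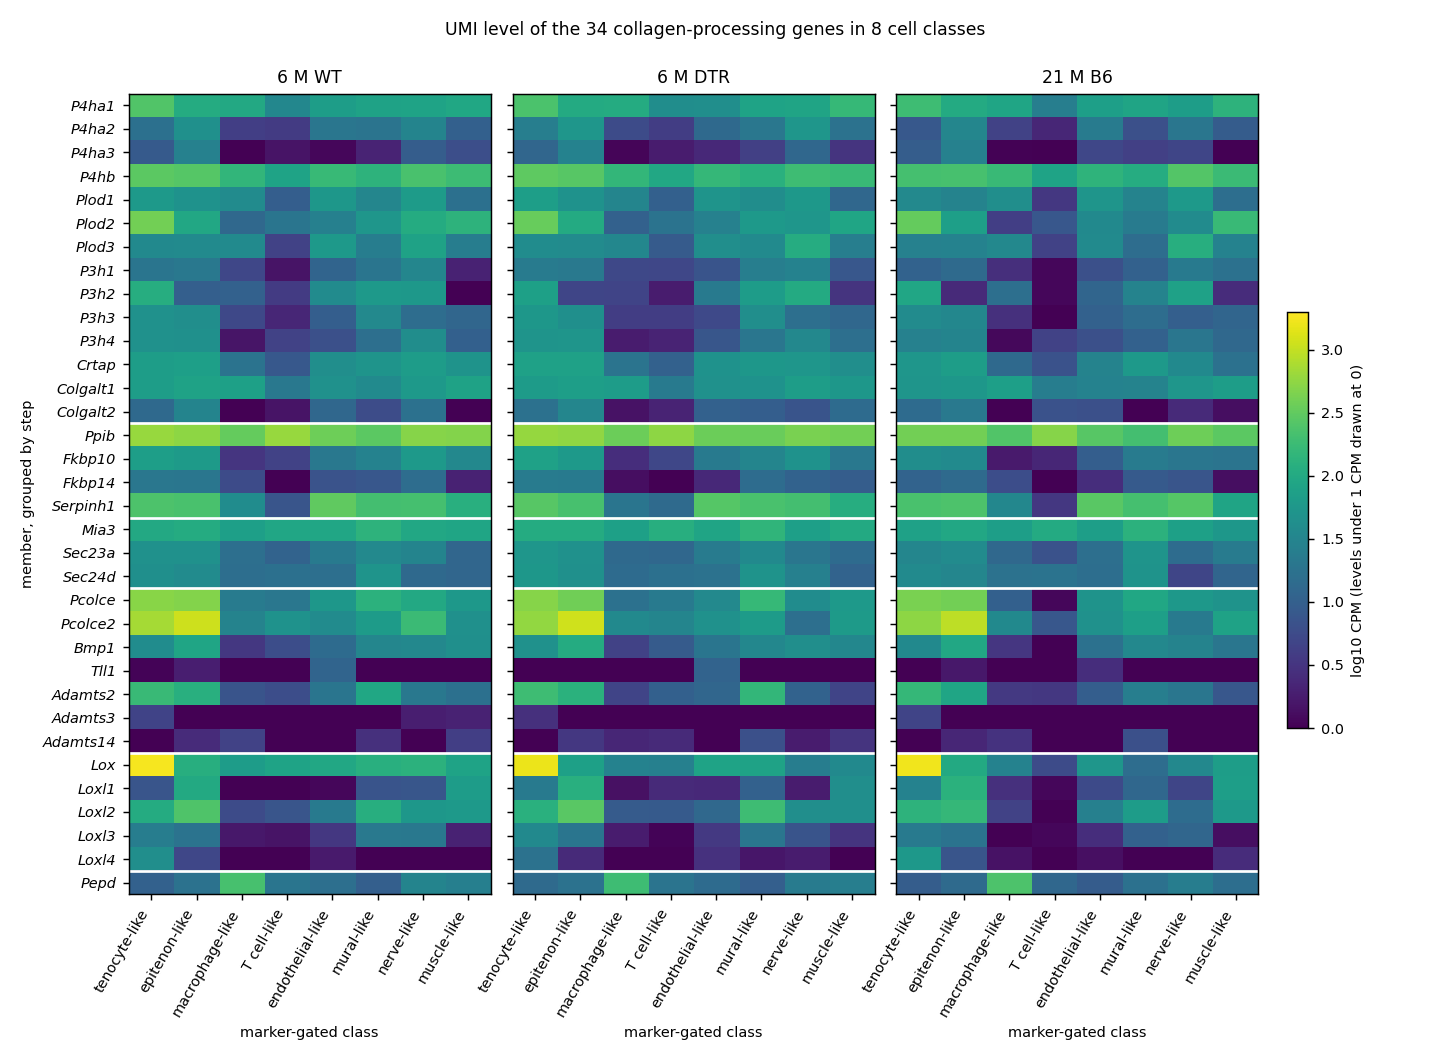
Colour gives the level of each of the 34 genes (rows, white lines between steps) as log10 CPM in 8 marker-gated classes (columns) of the 3 libraries (panels). *Lox* in tenocyte-like cells and *Pcolce2* in epitenon-like cells are the brightest cells, and *Pepd* is bright in macrophage-like cells of all 3 libraries.

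For 21 of the 34 genes the class with the highest level was the same in all 3 libraries. It was the tenocyte-like class for 10 (*P4ha1*, *Plod2*, *P3h3*, *Fkbp10*, *Pcolce*, *Adamts2*, *Adamts3*, *Lox*, *Loxl3* and *Loxl4*) and the epitenon-like class for 6 (*P4ha3*, *Colgalt2*, *Pcolce2*, *Bmp1*, *Loxl1* and *Loxl2*). Endothelial-like cells led for *Tll1*, mural-like cells for *Mia3*, and nerve-like cells for *Plod3* and *P3h1*. How often the highest class was the same in all 3 libraries was not counted over all genes, so the 21 describe the members alone. The order was by CPM alone, and some leads were narrow. *P3h1* stood at 28.8 CPM in nerve-like against 25.5 CPM in mural-like cells of 6 M DTR. In 21 M B6 it stood at 22.2 CPM against 17.1 CPM in muscle-like cells. *Tll1* stood there at 2.74 CPM in endothelial-like against 1.66 CPM in epitenon-like cells. These leads rested on few UMIs. Nerve-like cells held 0.837%, 1.01% and 1.16% of the 2032, 1590 and 777 *P3h1* UMIs. Endothelial-like cells of 21 M B6 held 7.69% of the 78 *Tll1* UMIs. Macrophage-like cells led for *Pepd* alone. The propeptide proteinase genes *Tll1*, *Adamts3* and *Adamts14* stayed under 20 CPM in every class and library.

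Within 6 M WT, 30 of the 34 genes reached 20 CPM in tenocyte-like or epitenon-like cells. Of these, 5 were at least 2-fold higher in tenocyte-like cells, where 4.02% of all genes were, and 6 were at least 2-fold lower, where 9.98% of all genes were. The higher ones were *Lox*, *P3h2*, *Loxl4*, *Plod2* and *P4ha1*, and the lower ones were *Loxl1*, *P4ha3*, *P4ha2*, *Colgalt2*, *Loxl2* and *Bmp1*. Of these, *P3h2*, *Loxl4*, *Loxl1*, *P4ha3*, *P4ha2* and *Colgalt2* reached 20 CPM only in the class where they were higher, and entered through it. Against macrophage-like cells, 20 of 26 genes were at least 2-fold higher in tenocyte-like cells (14.9% of all genes) and 1, *Pepd*, was lower (21.8% of all genes). The 20 genes included members of each step except recycling, whose only member is *Pepd*. Of them, *P4ha1*, *P4hb*, *Serpinh1*, *Pcolce*, *Pcolce2* and *Lox* also reached 20 CPM in macrophage-like cells. The rest entered through their level in tenocyte-like cells alone.

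Within the prolyl 4-hydroxylase and lysyl oxidase families, some members leaned to different fibroblast classes. Among the catalytic subunits of prolyl 4-hydroxylase, which makes the hydroxyprolines that stabilise the helix, *P4ha1* stood at 252 CPM in tenocyte-like and 107 CPM in epitenon-like cells of 6 M WT, and was 2.36-fold (2.26 to 2.46) higher in the former. *P4ha2* was 2.76-fold (2.54 to 3.01) and *P4ha3* 3.26-fold (2.91 to 3.65) higher in epitenon-like cells, at 45.5 and 28.3 CPM there. Even so, *P4ha1* had the highest level of these subunits in epitenon-like cells of 6 M WT. The same opposition stood in 6 M DTR, with *P4ha1* 2.20-fold (2.097 to 2.305) higher in tenocyte-like cells and *P4ha2* 2.06-fold (1.89 to 2.25) higher in epitenon-like cells. In 21 M B6 *P4ha1* was 1.83-fold (1.74 to 1.93) higher in tenocyte-like cells and *P4ha2* was 4.09-fold (3.28 to 5.16) higher in epitenon-like cells. Lysyl oxidases were divided in the same manner. *Lox* was 15.4-fold (14.8 to 16.0) and *Loxl4* 8.63-fold (7.12 to 10.6) higher in tenocyte-like cells of 6 M WT, whereas *Loxl1* was 13.5-fold (12.2 to 14.8) and *Loxl2* 2.29-fold (2.21 to 2.37) higher in epitenon-like cells. In 21 M B6 the classes lay closer for *Loxl2*, which was 1.16-fold (1.10 to 1.23) higher in epitenon-like cells.

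The share of each step's UMIs held by a class differed among libraries, as did the class sizes. For crosslinking, tenocyte-like cells held 89.9% (89.8 to 90.1), 81.6% (81.3 to 81.9) and 51.1% (50.6 to 51.6) of the UMIs. For propeptide cleavage the shares were 68.7%, 53.1% and 15.9%, and epitenon-like cells of 21 M B6 held 79.7% (79.4 to 80.0). Crosslinking was the only step in which tenocyte-like cells of 21 M B6 held the largest share. Over all kept cells *Lox* stood at 1205, 730 and 356 CPM, while within tenocyte-like cells it stood at 1817, 1581 and 1694 CPM.

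**Figure D2:**
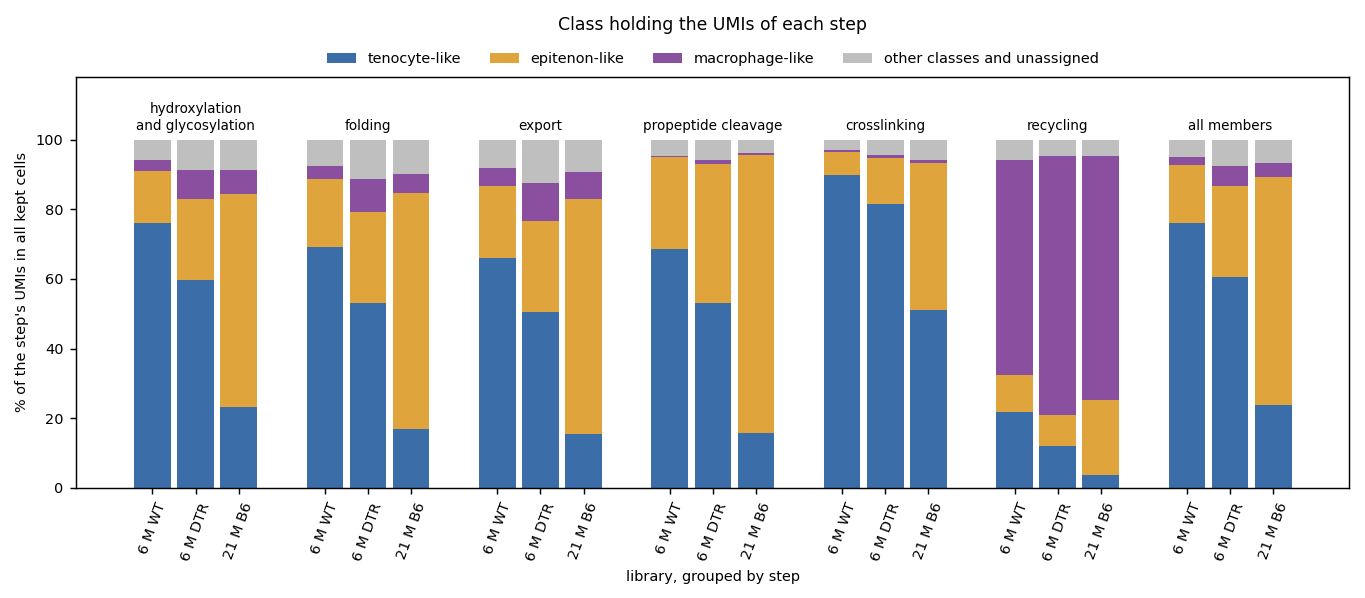
Stacked bars give the percentage of each step's UMIs that lay in tenocyte-like, epitenon-like, macrophage-like and all other cells (vertical axis) for each library, grouped by step. The tenocyte-like share of crosslinking is 89.9% in 6 M WT and 51.1% in 21 M B6, and recycling (*Pepd*) lies mainly in macrophage-like cells.

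Hydroxylation began with prolyl 4-hydroxylase. *P4hb*, its disulfide isomerase subunit, stood at 295, 303 and 212 CPM in tenocyte-like cells. *P4ha1* stood at 252, 230 and 190 CPM. *P4ha2* was much scarcer, at 16.5, 25.96 and 8.08 CPM, and was the only one of these 3 to be highest in 6 M DTR by more than 1.5-fold.

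Of the lysyl hydroxylases, *Plod2*, which hydroxylates the telopeptide lysines that give rise to the most stable crosslinks, was the member of its step with the highest level in tenocyte-like cells. It stood at 401, 344 and 333 CPM. In epitenon-like cells it stood at 95.9, 105 and 72.3 CPM. *Plod1*, which acts on helical lysines, stood at 60.2, 71.8 and 35.8 CPM in tenocyte-like cells, so that 21 M B6 was lowest. After each cell was thinned to 2000 UMIs, *Plod2* had a UMI in 46.8% (45.5 to 48.2), 42.6% (40.8 to 44.5) and 38.7% (35.4 to 42.0) of tenocyte-like cells, against 2.20%, 2.18% and 0.389% of macrophage-like cells, a class that should lack it. Unthinned, the tenocyte-like shares were 86.6%, 84.4% and 77.0%.

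*P3h2*, a prolyl 3-hydroxylase, was held mainly by tenocyte-like cells among the fibroblasts, with 113, 75.05 and 88.9 CPM there against 9.96, 4.88 and 2.47 CPM in epitenon-like cells. Its ratio between the classes was 11.3-fold (9.88 to 13.0) in 6 M WT and 15.4-fold (12.6 to 18.9) in 6 M DTR. In 21 M B6 its epitenon-like level was 2.78% of the tenocyte-like level, within the 0.113% to 4.05% of the 8 tenocyte markers there, and was read as background. *P3h4*, a partner that lysyl hydroxylase 1 needs to act on helical lysines, stood at 46.5, 50.4 and 28.0 CPM in tenocyte-like cells. *P3h1* stood at 19.1, 23.6 and 10.9 CPM and *Crtap*, its partner in the 3-hydroxylation complex, at 68.6, 77.5 and 54.9 CPM. The remaining genes of this step lay between 8.66 and 69.7 CPM in tenocyte-like cells of 6 M WT.

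Folding rested on *Ppib*, the prolyl isomerase cyclophilin B, which stood at 614, 605 and 399 CPM in tenocyte-like cells and at 554, 557 and 400 CPM in epitenon-like cells. Its level in 21 M B6 was the lowest in both classes. *Ppib* was not particular to fibroblasts, since T cell-like cells held 625, 554 and 497 CPM. *Fkbp10*, another prolyl isomerase, stood at 71.4, 77.0 and 41.8 CPM in tenocyte-like cells and *Fkbp14* at 20.6, 23.7 and 11.2 CPM.

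*Serpinh1* encodes HSP47, the chaperone that binds folded procollagen, and it did not share the low level of the other folding genes in 21 M B6. It stood at 236 CPM (232 to 240), 276 CPM (271 to 281) and 224 CPM (215 to 233) in tenocyte-like cells and at 228, 220 and 241 CPM in epitenon-like cells. Endothelial-like cells held as much, with 309, 272 and 283 CPM. None of the 3 export genes passed 1.5-fold against 6 M WT in tenocyte-like or epitenon-like cells. In those comparisons 1.29% to 13% of all genes passed it in each direction, so this count was near the background. *Mia3* encodes TANGO1, the receptor that loads procollagen into large carriers, and stood at 98.3, 107 and 76.9 CPM in tenocyte-like cells. *Sec23a* and *Sec24d* encode inner coat proteins of those carriers and stood at 46.9, 53.6 and 32.2 CPM and at 43.9, 55.2 and 38.5 CPM.

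Promoters were read for members that parted within a family or step, where a window was at hand. RefSeq windows of 250 bases before to 50 after the gene start (build GRCm38.p6) were at hand for 24 of the 34 genes. The 10 without one were *Plod2*, *P3h2*, *P3h4*, *Colgalt2*, *Fkbp10*, *Bmp1*, *Lox*, *Loxl1*, *Loxl2* and *Loxl3*. Of the lysyl oxidases only *Loxl4* could thus be read. The windows of *P4ha1* and *P4ha2*, which differed in class, and of *Ppib* and *Serpinh1*, which differed in 21 M B6, are given as the 250 bases before the start, 5′ to 3′ on the gene's strand. Capitals mark ACGTG, a form of the core of the hypoxia response element, or its reverse complement, since prolyl 4-hydroxylases are known targets of the hypoxia-inducible factors. No other form of the core was searched.
P4ha1, chr10:59323046-59323295, plus strand: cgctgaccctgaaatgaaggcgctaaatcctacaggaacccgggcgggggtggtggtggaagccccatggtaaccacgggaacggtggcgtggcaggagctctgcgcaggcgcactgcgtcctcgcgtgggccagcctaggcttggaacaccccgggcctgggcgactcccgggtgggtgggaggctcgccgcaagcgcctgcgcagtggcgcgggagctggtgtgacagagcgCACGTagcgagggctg
P4ha2, chr11:54100674-54100923, plus strand: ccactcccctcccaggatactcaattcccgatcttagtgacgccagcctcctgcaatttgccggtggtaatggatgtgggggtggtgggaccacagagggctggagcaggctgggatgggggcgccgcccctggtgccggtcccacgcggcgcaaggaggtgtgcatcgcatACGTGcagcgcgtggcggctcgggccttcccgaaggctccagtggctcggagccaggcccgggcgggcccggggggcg
Ppib, chr9:66059919-66060168, plus strand: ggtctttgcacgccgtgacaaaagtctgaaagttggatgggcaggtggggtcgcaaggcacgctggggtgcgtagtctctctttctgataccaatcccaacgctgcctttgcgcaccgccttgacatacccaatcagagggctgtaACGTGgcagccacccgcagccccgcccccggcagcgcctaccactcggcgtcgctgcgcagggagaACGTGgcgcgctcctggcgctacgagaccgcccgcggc
Serpinh1, chr7:99353240-99353489, minus strand: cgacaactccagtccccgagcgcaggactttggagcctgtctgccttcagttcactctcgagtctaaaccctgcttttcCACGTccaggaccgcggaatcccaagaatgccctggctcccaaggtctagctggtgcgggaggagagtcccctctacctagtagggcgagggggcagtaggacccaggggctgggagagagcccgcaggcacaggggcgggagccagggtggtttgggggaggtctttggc

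This form of the core, searched on both strands and with overlaps kept, was present in the windows of 13 of the 24 genes (54.2%). Among all 27025 genes with a window it was present in 21.8%, and among the 9690 windows with at least 60% G or C it was present in 26.5% of windows. The members' windows were richer in G and C, with a median of 64.5% against 52.8%. *P4ha1*, *P4ha2*, *Ppib* and *Serpinh1* all held it, so it did not part the genes of either printed pair. It was not found for *P4ha3*, which leaned to epitenon-like cells as *P4ha2* did, nor for *Plod1* or *Loxl4*. A heat shock element, written as GAANNTTC or TTCNNGAA, was present for 5 of the 24 genes (20.8%, against 17.0% of all genes) and was not found in the window of *Serpinh1*. The endoplasmic reticulum stress element, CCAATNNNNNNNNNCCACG, was found for 0 of the 24 and for 0.137% of all genes. A match of letters is a description of the window and does not show that a factor binds there.

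Propeptide cleavage was led by its enhancers rather than by its proteinases. *Pcolce2*, which speeds removal of the C-propeptide, stood at 716, 586 and 552 CPM in tenocyte-like cells and at 1128, 1147 and 934 CPM in epitenon-like cells. *Pcolce*, the related enhancer, stood at 518, 502 and 429 CPM in tenocyte-like cells and at 490, 380 and 401 CPM in epitenon-like cells. *Adamts2*, the main N-propeptide proteinase, reached 174, 191 and 156 CPM in tenocyte-like cells. *Bmp1*, the C-propeptide proteinase, reached 39.8, 46.2 and 36.4 CPM there and 86.8, 106 and 94.2 CPM in epitenon-like cells.

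*Lox*, the main lysyl oxidase, had the highest level of all 34 genes in tenocyte-like cells, at 1817, 1581 and 1694 CPM. It made up 90.9%, 88.7% and 87.4% of the crosslinking UMIs of these cells. After thinning, 84.8% (83.8 to 85.7), 75.8% (74.2 to 77.4) and 83.5% (80.9 to 86.0) of tenocyte-like cells had a *Lox* UMI (98.2%, 95.1% and 97.9% unthinned). In macrophage-like cells the thinned shares were 5.91%, 3.22% and 2.92%, and the level was 3.62%, 1.86% and 1.72% of that in tenocyte-like cells. The 8 tenocyte markers stood in macrophage-like cells at 1.86% to 3.67%, 1.65% to 2.50% and 0% to 1.998% of their own tenocyte-like levels. *Lox* lay within that range in each library and was read as background there. In epitenon-like cells *Lox* stood at 118.1, 76.1 and 100.1 CPM, or 6.50%, 4.81% and 5.91% of the tenocyte-like level. The markers ranged there from 0.871% to 8.14%, from 0.260% to 5.35% and from 0.113% to 4.05%, so *Lox* lay above all of them in 21 M B6 alone and within the background in the other libraries. The ratio of *Lox* between these classes includes that background.

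The smaller members of the family followed other orders. *Loxl2* stood at 107, 124 and 134 CPM in tenocyte-like cells and at 244, 287 and 156 CPM in epitenon-like cells. *Loxl1*, the oxidase best known for crosslinking elastin, stood at 7.39, 22.5 and 29.2 CPM in tenocyte-like cells and at 99.6, 121 and 130 CPM in epitenon-like cells. *Loxl4* stood at 42.96, 17.3 and 58.3 CPM in tenocyte-like cells and under 8 CPM in epitenon-like cells of each library. *Loxl1* was thus lowest and *Loxl4* intermediate in 6 M WT.

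**Figure D3:**
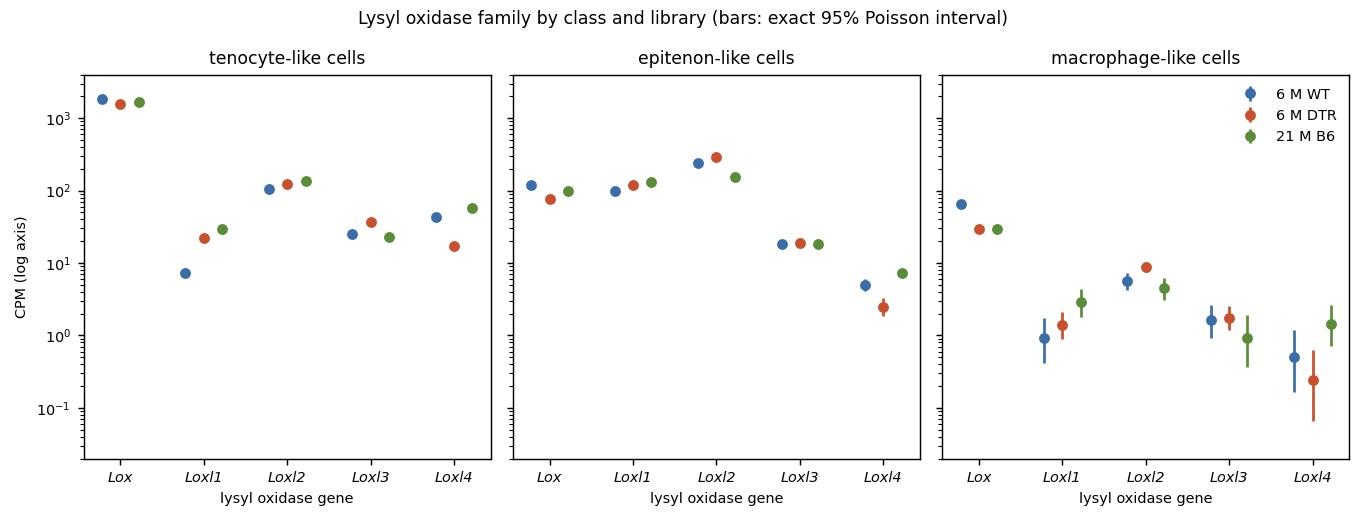
Points give CPM (log axis) of the 5 lysyl oxidase genes in tenocyte-like, epitenon-like and macrophage-like cells of the 3 libraries, with exact 95% Poisson intervals. *Lox* lies at or above 1581 CPM in tenocyte-like cells of each library and at or under 118.1 CPM in the other classes shown, while *Loxl1* and *Loxl2* lie highest in epitenon-like cells.

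Recycling was represented by *Pepd*, a prolidase that cleaves dipeptides ending in proline or hydroxyproline. It stood at 222, 191 and 240 CPM in macrophage-like cells and at 10.7, 13.7 and 9.33 CPM in tenocyte-like cells. Macrophage-like cells held 61.7% (60.1 to 63.3), 74.4% (73.1 to 75.7) and 70.0% (68.2 to 71.8) of its UMIs. *Pepd* was the one member led by the same immune class in all 3 libraries. *Ppib* was highest in T cell-like cells of 6 M WT and 21 M B6, while macrophage-like cells led for *Colgalt1* in 21 M B6 and for *Adamts14* in 6 M WT.

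**Figure D4:**
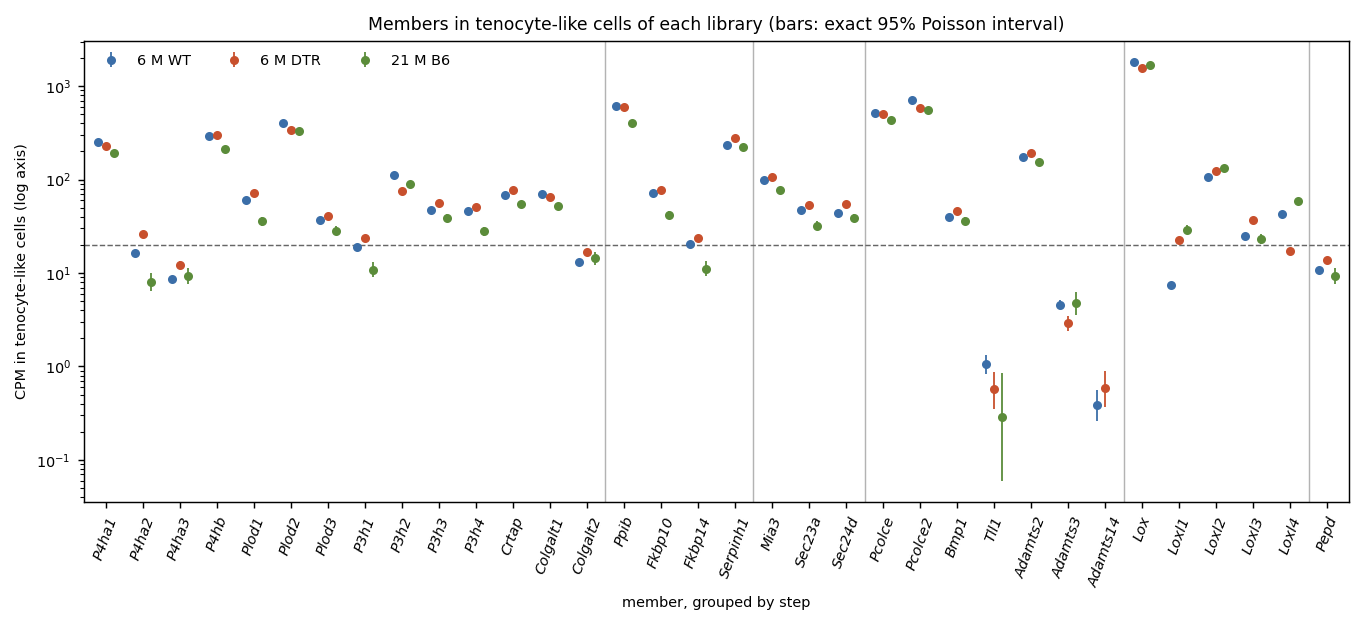
Points give CPM (log axis) of each of the 34 genes in tenocyte-like cells of each library with exact 95% Poisson intervals, grouped by step and with a dashed line at 20 CPM. *Lox* lies highest in each library, and *Loxl1* and *Loxl4* are the crosslinking genes whose 3 points lie farthest apart. *Adamts14* had no UMI in 21 M B6 and no point is drawn.

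Tenocyte-like cells of 6 M DTR were compared with those of 6 M WT to ask how the tenocytes present after Scleraxis-lineage depletion differed. Of 28 genes that reached 20 CPM in either library, 2 were at least 1.5-fold higher (*P4ha2* and *Loxl1*) and 2 at least 1.5-fold lower (*P3h2* and *Loxl4*). *P4ha2* and *Loxl1* reached 20 CPM in 6 M DTR but not in 6 M WT, and *Loxl4* in 6 M WT but not in 6 M DTR. Each thus entered through the library where it was higher. Among all genes 5.96% were higher and 5.97% lower, so the members' counts were near the background. Their median log2 ratio was 0.13 against 0.02 for all genes. The lysyl oxidases held the extremes in both directions.

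*Loxl1* (ENSMUSG00000032334) was 3.04-fold (2.72 to 3.40) higher in 6 M DTR, on 831 UMIs against 529. After thinning it had a UMI in 1.49% (1.18 to 1.85) of tenocyte-like cells of 6 M WT and 3.91% (3.22 to 4.69) of 6 M DTR, against 0.169% and 0.435% of macrophage-like cells (7.52% and 18.1% of tenocyte-like cells unthinned). The 8 epitenon markers summed to 1545 CPM in tenocyte-like cells of 6 M WT and 1288 CPM in 6 M DTR, and one by one their ratios ran from 0.386 to 1.56 with a median of 1.35. Of the 8, 2 were at least 1.5-fold higher and 1 lower. The part of epitenon RNA in the level of *Loxl1* was not tested. *Loxl4* (ENSMUSG00000025185) stood at a ratio of 0.403 (0.369 to 0.439). In the clusters of a second grouping, which took in 97.5% of the tenocyte-like cells of 6 M WT and 89.7% of those of 6 M DTR, both ratios stayed past 1.5-fold.

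*P4ha2* (ENSMUSG00000018906) was 1.58-fold (1.45 to 1.72) higher in 6 M DTR and *P3h2* (ENSMUSG00000038168) stood at 0.666 (0.638 to 0.696). Both lay close to the limit and fell short of it in the clusters, at log2 ratios of 0.50 and -0.52. *Lox* stood at 0.870 (0.861 to 0.879) and *Pcolce2* at 0.820 (0.807 to 0.833). Female cells made up 72.6% of the tenocyte-like cells whose sex could be read in 6 M WT and 40.9% in 6 M DTR. Within male cells the log2 ratio of *Pcolce2* was -0.69 and within female cells it was 0.13, and for *Lox* the female value was 0.01, so the lower *Pcolce2* and *Lox* of 6 M DTR did not hold within female cells. *Loxl3*, at 1.47-fold (1.37 to 1.58), lay just inside the limit.

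Epitenon-like cells of 6 M DTR were close to those of 6 M WT for nearly every member. Of 27 genes, 0 were at least 1.5-fold higher (1.29% of all genes) and 1, *Lox*, was at least 1.5-fold lower (3.06% of all genes). *Lox* stood at 0.644 (0.605 to 0.686) and was past the limit under 4 of 10 other settings, with log2 ratios from -0.90 to -0.27. The 8 tenocyte markers summed to 552 CPM in epitenon-like cells of 6 M WT and 443 CPM in 6 M DTR. The highest single marker, at 322 and 217 CPM, made up much of each sum. The *Lox* level of epitenon-like cells lay within the range of those markers in both libraries, each as a share of its tenocyte-like level. The part of tenocyte RNA in this *Lox* level was not tested. The median log2 ratio of the members was 0.04 against 0.00 for all genes. Beyond *Lox*, the members ranged from *Pcolce* at 0.776 (0.754 to 0.799) to *Bmp1* at 1.22 (1.15 to 1.30).

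In macrophage-like cells 12 members reached 20 CPM. Of these 0 were higher in 6 M DTR (1.73% of all genes) and 2 were lower (2.86% of all genes), namely *Lox* at 0.447 (0.396 to 0.504) and *Serpinh1* at 0.486 (0.418 to 0.565). For 21 M B6, 0 were higher (6.65% of all genes) and 2 were lower (8.2% of all genes), *Lox* at 0.444 (0.379 to 0.518) and *Pcolce* at 0.427 (0.325 to 0.554). All 3 genes were at least 2-fold higher in tenocyte-like than in macrophage-like cells of 6 M WT. Across the 8 tenocyte markers, the median level in macrophage-like cells as a share of the tenocyte-like level was 3.09%, 2.03% and 1.47%, and thus lower in 6 M DTR and 21 M B6 as well. *Serpinh1* stood in macrophage-like cells at 16.8% of its tenocyte-like level in 6 M WT and at 6.999% in 6 M DTR. The markers reached at most 3.67% and 2.50% there. *Pcolce* stood at 4.601% in 6 M WT and at 2.37% in 21 M B6, where the markers reached at most 3.67% and 1.998%. Of the 3 genes, *Lox* alone lay within the range of the tenocyte markers. *Pcolce* and *Serpinh1* also stood at 490 and 228 CPM in epitenon-like cells of 6 M WT. The 8 epitenon markers summed to 90.9, 88.6 and 114 CPM in macrophage-like cells, against 5366 CPM in epitenon-like cells of 6 M WT. Tenocyte markers alone are thus not the whole background for these 2 genes. The part of tenocyte or epitenon RNA in the member levels of macrophage-like cells was not tested.

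**Figure D5:**
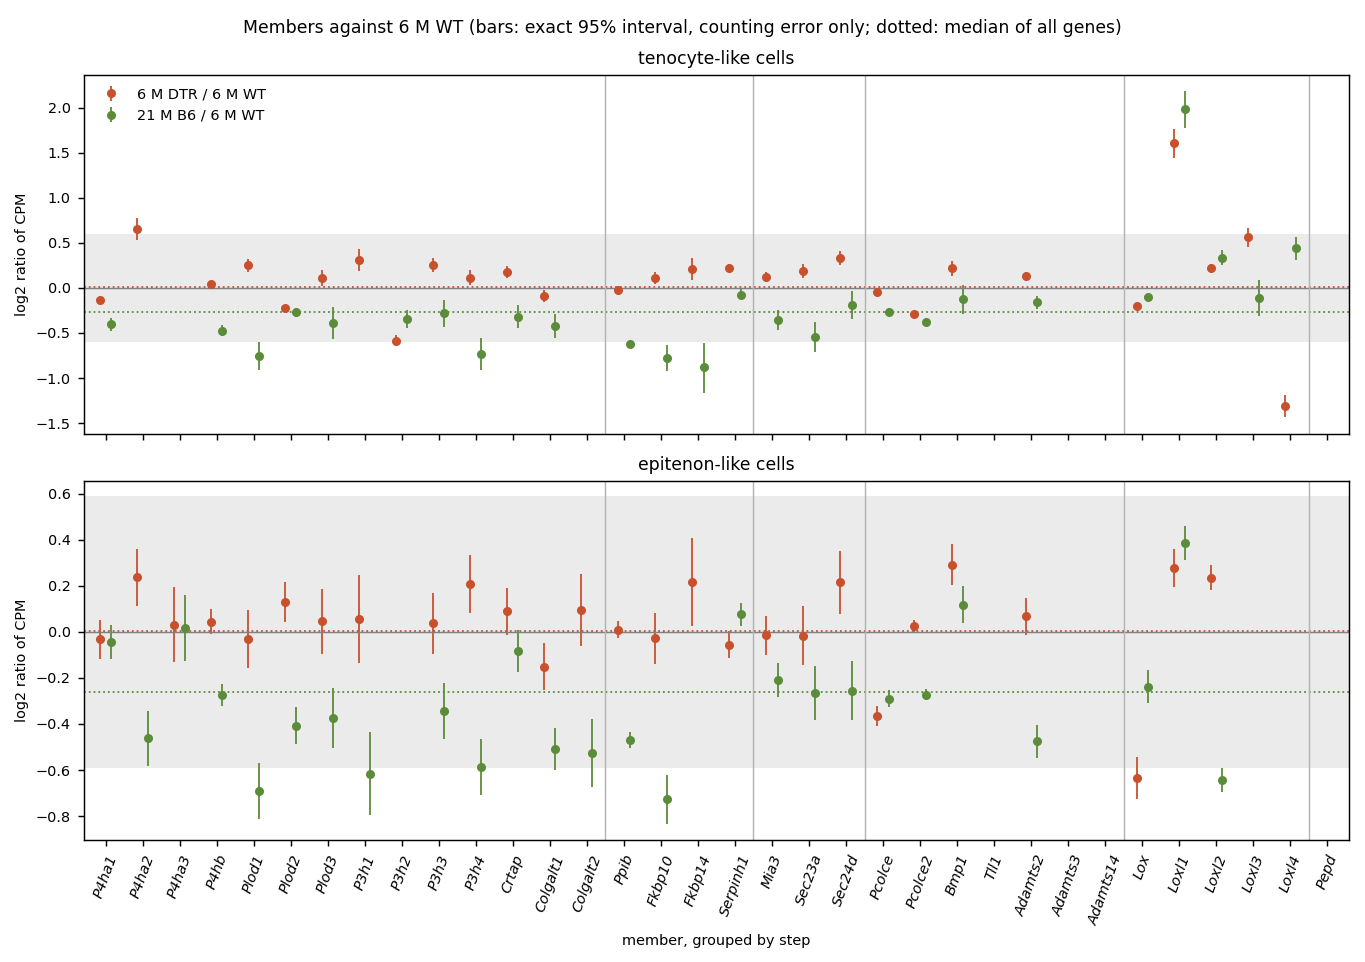
Points give the log2 ratio of CPM to 6 M WT for 6 M DTR and 21 M B6 in tenocyte-like (top) and epitenon-like (bottom) cells with exact 95% intervals, for members that reached 20 CPM. The grey band marks 1.5-fold and dotted lines the median of all genes, which lies near -0.27 for 21 M B6 in both panels, and *Loxl1* and *Loxl4* lie farthest outside the band in tenocyte-like cells.

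Tenocyte-like cells of 21 M B6 were compared with those of 6 M WT to describe the aged tendon. Of 26 genes, 1 was at least 1.5-fold higher (*Loxl1*, with 6.68% of all genes higher) and 5 were at least 1.5-fold lower (*Plod1*, *P3h4*, *Ppib*, *Fkbp10* and *Fkbp14*, with 13% of all genes lower). *Loxl1* reached 20 CPM in 21 M B6 but not in 6 M WT, and *Fkbp14* in 6 M WT but not in 21 M B6. The median log2 ratio of the members was -0.33, and that of all genes was already -0.27. With TMM scaling, which moved the all-gene median from -0.27 to -0.03, the split was 2 higher (*Loxl1* and *Loxl4*) and 0 lower among the 25 genes that then reached 20 CPM. The shares of all genes past the limit were not recorded with TMM, so this split has no background beside it. *Fkbp14* stayed past 1.5-fold with TMM, at a ratio of 0.639, but no longer reached 20 CPM, and the other 4 stood between 0.688 and 0.764.

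By median, the folding genes were lowest relative to the other steps in tenocyte-like cells. Their median log2 ratio was -0.70, with 3 of 4 past the limit (13% of all genes lower). For the same genes, a scaling factor shifts every ratio alike and leaves the order among steps. The medians here keep *Fkbp14*, which fell under 20 CPM with TMM. *Ppib* stood at a ratio of 0.649 (0.629 to 0.670), *Fkbp10* at 0.585 (0.529 to 0.645) and *Fkbp14* at 0.543 (0.445 to 0.656). *Serpinh1*, the fourth, stood at 0.949 (0.909 to 0.991), above the interval of each of the others, and at a log2 ratio of 0.16 with TMM scaling. The median was -0.40 for hydroxylation and glycosylation, -0.36 for export, -0.22 for propeptide cleavage and 0.33 for crosslinking. Summed over its genes, folding stood at a ratio of 0.717 in tenocyte-like and 0.801 in epitenon-like cells. Hydroxylation and glycosylation stood at 0.763 and 0.798, so folding was not the lowest step in epitenon-like cells. Crosslinking stood at 0.970 (0.956 to 0.984) and 0.849, so its sum was not raised although its median in tenocyte-like cells was positive. *Lox* made up 87.4% of its UMIs in tenocyte-like cells of 21 M B6.

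Within hydroxylation, *Plod1* at 0.594 (0.533 to 0.661) and *P3h4* at 0.602 (0.532 to 0.678), which act together on helical lysines, stood lower than *Plod2* at 0.829 (0.800 to 0.859). With the mitochondrial limit set at 5%, the same 5 genes were lower and the members' median was -0.24 against -0.23 for all genes. The share of all genes that were lower was not recorded under that limit.

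*Loxl1* was 3.95-fold (3.41 to 4.55) higher in tenocyte-like cells of 21 M B6 than of 6 M WT, on 303 UMIs. After thinning, 4.03% (2.82 to 5.56) of these cells had a *Loxl1* UMI against 0.389% of macrophage-like cells (18.0% of tenocyte-like cells unthinned). Epitenon markers did not all move with it. Their sum was 1638 CPM against 1545 CPM in 6 M WT, most of it from *Clec3b* and *Ly6a*, but 4 of the 8 were at least 1.5-fold higher and 0 lower, with a median ratio of 1.95. *Pi16* stood at 4.71-fold, *Efemp1* at 4.29-fold, *Dpp4* at 3.95-fold and *Cd34* at 2.88-fold, each from a low level in 6 M WT (0.740 to 48.4 CPM). The remaining markers, *Clec3b*, *Ccn3*, *Ly6a* and *Krtdap*, stood at ratios of 1.03, 0.929, 0.918 and 0.707. The part of epitenon RNA in the higher *Loxl1* was not tested. *Loxl2* stood at 1.26-fold (1.19 to 1.33) and *Loxl4* at 1.36-fold (1.24 to 1.48), while *Lox* stood at 0.932 (0.918 to 0.947), which turned to a log2 ratio of 0.13 with TMM scaling. Among female cells the log2 ratio of *Loxl4* was -0.09, and among male cells it was 0.51.

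21 M B6 and 6 M DTR shared the digestion time of 90 min. Against 6 M DTR, 1 of 28 genes was at least 1.5-fold higher in tenocyte-like cells of 21 M B6 (*Loxl4*, with 9.55% of all genes higher) and 9 were lower (24.2% of all genes). The lower genes were *P4ha2*, *Plod1*, *P3h1*, *P3h4*, *Ppib*, *Fkbp10*, *Fkbp14*, *Sec23a* and *Loxl3*. *Loxl4* reached 20 CPM in 21 M B6 but not in 6 M DTR. *P4ha2*, *P3h1* and *Fkbp14* reached it in 6 M DTR but not in 21 M B6. *Loxl4* was 3.37-fold (3.01 to 3.77) higher and *P4ha2* stood at 0.311 (0.246 to 0.389). *Loxl1* differed less between these libraries by CPM, at 1.30-fold (1.13 to 1.48). The TMM factors of these cells were 1.106 in 6 M DTR and 0.876 in 21 M B6. With them every ratio of 21 M B6 to 6 M DTR would be higher. The counts were not recomputed with TMM for this comparison, so they rest on CPM scaling. The 5 genes that were lower than in 6 M WT were also among the 9, and both comparisons share the 21 M B6 library.

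In epitenon-like cells of 21 M B6, 0 of 26 genes were at least 1.5-fold higher (4.09% of all genes) and 5 were lower (8.99% of all genes). These were *Loxl2* at 0.640 (0.617 to 0.664), *Fkbp10* at 0.604 (0.562 to 0.651), *Plod1* at 0.619 (0.570 to 0.673), *P3h1* at 0.6525 (0.576 to 0.740) and *P3h4* at 0.667 (0.613 to 0.725). *P3h1* reached 20 CPM in 6 M WT but not in 21 M B6. The members' median log2 ratio was -0.32 and that of all genes was -0.26. TMM scaling left 1 higher (*Loxl1*) and 0 lower, and a mitochondrial limit of 5% left 3 lower (*Plod1*, *Fkbp10* and *Loxl2*). The shares of all genes were not recorded under these 2 settings. *Plod1*, *P3h4* and *Fkbp10* were past the limit in tenocyte-like and epitenon-like cells alike, while *Loxl2* stood above 1 in the former and below 1 in the latter. *Serpinh1* was again high for its step, at 1.05 (1.02 to 1.09) against 0.722 (0.706 to 0.740) for *Ppib*.

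Collagen chains, the substrates of this machinery, had medians farther from that of all genes than the 34 members in tenocyte-like cells. In tenocyte-like cells of 21 M B6, 9 of 16 collagen chain genes that reached 20 CPM were at least 1.5-fold lower than in 6 M WT (13% of all genes) and 2 were higher (6.68% of all genes), with a median log2 ratio of -0.66 against -0.27 for all genes. The extremes were *Col14a1* at 7.95-fold (6.71 to 9.42) and *Col6a3*, a chain of the microfibrillar type VI collagen, at 0.298. In these cells 4 of the 8 epitenon markers were at least 1.5-fold higher and 0 lower. The part of epitenon RNA in the *Col14a1* level was not tested. *Col1a1* went from 6219 to 2483 CPM, a ratio of 0.399 (0.394 to 0.404), and *Col1a2* from 6293 to 2974 CPM, a ratio of 0.473 (0.467 to 0.478). In 6 M DTR, 6 of 16 were higher (5.96% of all genes) and 1 lower (5.97% of all genes), at a median of 0.45, with *Col3a1* at 2.08-fold (2.06 to 2.103), *Col12a1* highest at 2.25-fold (2.21 to 2.29) and *Col11a2* lowest at 0.213 (0.191 to 0.238). In epitenon-like cells, 11 of 15 chains were lower in 21 M B6 (8.99% of all genes) and 0 passed the limit in 6 M DTR (1.29% of all genes higher and 3.06% lower).

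Per 100 UMIs of type I collagen (*Col1a1* and *Col1a2*), tenocyte-like cells therefore held 48.3, 49.9 and 92.6 UMIs of the 34 genes. The ratio of 21 M B6 to 6 M WT was 1.92 (1.90 to 1.94). It was highest for crosslinking at 2.22 (2.19 to 2.26) and lowest for folding at 1.64 (1.60 to 1.69). Since both quantities come from the same cells, the scaling of a library does not enter these ratios. In epitenon-like cells the same quantity was 187, 189 and 317. Summed over the 34 genes, epitenon-like cells thus held several times more per collagen UMI than tenocyte-like cells in each library. For crosslinking the classes lay closer, at 16.0, 15.6 and 35.5 in tenocyte-like and 21.0, 22.2 and 36.8 in epitenon-like cells. *Lox* went the other way, at 14.5, 13.8 and 31.0 in tenocyte-like against 5.12, 3.34 and 8.95 in epitenon-like cells.

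Other genes of the pathway were read from 3 lists. In tenocyte-like cells their counts stand beside 5.96% of all genes higher and 5.97% lower in 6 M DTR, and 6.68% higher and 13% lower in 21 M B6, where the all-gene medians were 0.02 and -0.27. Among 16 general folding genes of the endoplasmic reticulum, 15 reached 20 CPM in tenocyte-like cells. In 6 M DTR, 1 was higher (*Ppic*, cyclophilin C, at 2.06-fold, 2.002 to 2.11) and 0 lower, with a median log2 ratio of 0.03 and *Ero1l* lowest at 0.882. In 21 M B6, 0 were higher and 4 lower (*Pdia3*, *Dnajb11*, *Sdf2l1* and *Txndc5*), with a median of -0.38, and *Hspa5*, the chaperone BiP, was the highest at 1.27-fold (1.25 to 1.29) and *Txndc5* the lowest at 0.593. Among 16 genes of the COPII coat and of cargo export, 15 reached 20 CPM. In 6 M DTR 0 passed the limit, from *Sec23b* at 0.810 to *Kdelr3* at 1.29, with a median log2 ratio of 0.00. In 21 M B6 0 were higher and 2 lower (*Lman1* and *Kdelr3*, the latter at 0.478, 0.419 to 0.544), with a median of -0.41.

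Among 14 factors that transport, control or degrade collagen, 13 reached 20 CPM in tenocyte-like cells. In 6 M DTR 2 were higher, *Mmp14* and *Ctsk*, which both encode proteases that cleave collagen, the latter at 2.39-fold (2.34 to 2.44). Another 2 were lower, *Emilin1* and *Tent5a*, a poly(A) polymerase that stabilises collagen mRNA, which stood at 0.286 (0.279 to 0.293). In 21 M B6 0 were higher and 3 lower, *Sparc*, *Emilin1* and again *Tent5a* at 0.351 (0.338 to 0.365), with *Pcsk6*, a proprotein convertase, highest at 1.33-fold. The medians were 0.12 in 6 M DTR and -0.31 in 21 M B6. *Ctsk* was also higher in epitenon-like cells of 6 M DTR, at 1.82-fold (1.76 to 1.89).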

How the data were processed

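The deposited files held raw UMI counts per gene and barcode, which the authors made with Cell Ranger from 10x Chromium 3′ v3 libraries of 16 pooled FDL tendons per group. The file headers name version 6.0.1 and the submitters' processing notes version 2.1.1, and the genome build is not given in the sources used here. Barcodes with 1000 to 5000 genes and at most 10% mitochondrial UMIs were kept, after the study's filter. Cells were gated to a class when at least 3 of its 8 markers had a UMI and more than for any other class. Counts were summed per class and library.

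Ratios of CPM carry exact 95% intervals, for counting error alone, since UMIs of 1 library are not replicates. As each group was 1 library, nothing was tested. A gene was called past 1.5-fold (2-fold between classes) if it reached 20 CPM in either sum. A gene could thus enter through the sum in which it was higher, among members and all genes alike. Members were named with their value in each library if they led their step in tenocyte-like cells of 6 M WT or were past 1.5-fold in either fibroblast class. Other members were named for their role after their values were seen, and other lists by their counts, medians and extremes. The members, markers and lists were chosen with earlier results of these data known. Doublets were scored with Scrublet in scanpy 1.11.5. Its automatic limit marked 1 to 6 cells per library, so a score of 0.25 was used, which marked 84 to 195 cells, and they were removed in an alternative alone. Clusters came from Seurat 5.3.0 (R 4.3.3) and TMM factors from edgeR 4.0.16. The ratio and interval code was tested on simulated data. Python 3.11.15, numpy 2.4.6, scipy 1.17.1, pandas 2.3.3 and matplotlib 3.10.9 were used. The diphtheria toxin receptor transgene was not among the genes of the files, so depletion was read only from the tenocyte-like share.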

Additional observations from a re-analysis of the deposited data

Results flagged for a closer look

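For 3 members the ratio to 6 M WT lay on opposite sides of 1 in tenocyte-like and epitenon-like cells, with an interval clear of 1 in each class. Each class was 1 library per group, so the difference between classes was not tested. *Plod2*, the telopeptide lysyl hydroxylase, had a log2 ratio of -0.22 in tenocyte-like cells and 0.13 in epitenon-like cells of 6 M DTR. *Serpinh1*, the procollagen chaperone, had a log2 ratio of -0.075 in tenocyte-like cells and 0.0754 in epitenon-like cells of 21 M B6. With TMM scaling both were positive, at 0.16 and 0.37, and the tenocyte-like value was 0.0367 in male cells. *Loxl2*, a lysyl oxidase, had a log2 ratio of 0.33 in tenocyte-like cells and -0.64 in epitenon-like cells of 21 M B6, the widest gap of the 3.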

How the results depend on the processing

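Across 13 alternative settings, 123 of the 156 recomputed counts and medians stayed within 1.5 times or within the spread allowed, 32 moved and 1 reversed, and the cause was not tested. No paired analysis was possible because each group was 1 library. The shares of all genes past the limit were not recorded under these settings, so the counts of this paragraph have no background beside them. In tenocyte-like cells of 6 M DTR the lower members numbered 1 with a mitochondrial limit of 5%, no upper limit of genes, Seurat clusters, female cells or a 2-fold limit, and 4 with no minimum level. The higher members numbered 1 with Seurat clusters, TMM or a 2-fold limit, and the median log2 ratio was 0.0259 with TMM. In tenocyte-like cells of 21 M B6, TMM gave 2 higher, 0 lower and a median of -0.0849, thinning gave 2 higher, no minimum gave 8 lower and a 2-fold limit 0 lower. In epitenon-like cells of 6 M DTR the lower members numbered 0 with doublets removed, Seurat clusters, thinning, female cells, male cells, a 2-fold limit or a mean over cells, 2 with a minimum of 5 CPM and 4 with none, and the median was 0.118 in female cells. In epitenon-like cells of 21 M B6 the lower members numbered 3 with a mitochondrial limit of 5%, 8 after thinning and 0 with a 2-fold limit, Seurat clusters gave a median of -0.42, and TMM gave 1 higher, 0 lower and a median of 0.0141, which reversed. Of 107 single-gene ratios, 42 changed sign under at least 1 setting, 21 of them with an interval that included 1 as reported. The other 21 are given by log2 ratio. In tenocyte-like cells of 6 M DTR these were *P4hb* (-0.0633 with TMM, -0.0736 in female cells), *Fkbp10* (-0.0079), *Fkbp14* (-0.0172), *Pcolce2* (0.13) and *Lox* (0.0111) in female cells, and *P4ha1* (0.0608), *Adamts2* (-0.0912) and *Loxl2* (-0.0983) in male cells. In tenocyte-like cells of 21 M B6 these were *Serpinh1* (0.16), *Sec24d* (0.045), *Adamts2* (0.0746) and *Lox* (0.13) with TMM, *Adamts2* (0.0921) with a mitochondrial limit of 5%, *Loxl4* (-0.0903) in female cells and *Serpinh1* (0.0367) in male cells. In epitenon-like cells these were *P3h4* (-0.0581) in male cells of 6 M DTR and, in 21 M B6, *Lox* (0.0385 with a stricter gate, 0.29 in male cells, 0.0589 with TMM) and, with TMM, *P4hb* (0.0216), *Mia3* (0.0865), *Sec23a* (0.031), *Sec24d* (0.0416), *Pcolce* (0.0066) and *Pcolce2* (0.0245). *Loxl1* in both libraries, *Loxl4* in 6 M DTR and *Fkbp14* in 21 M B6 stayed past 1.5-fold in tenocyte-like cells under 10 of 10 settings.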
